A study of Mus musculus with 2 samples.

Results

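The miRNA genes best known from microglia and white blood cells were described in the cerebral cortex of the mouse. They are Mir142, Mir146 (which encodes miR-146a), Mir150, Mir155 and Mir223, chosen by name from the GENCODE M21 annotation, and they are 5 of the 2202 miRNA genes in the count tables. Small RNAs below 30 nucleotides were sequenced from the left cerebral cortex. The mice were 2 males of B6CASTF1/J, the first generation of a cross between C57BL/6J and CAST/EiJ, aged 2 months. Library 1 was made from the animal numbered male 3 and library 2 from male 4, with no treatment named for either. The labels give both samples the same donor identifier, so only the numbering of animals and replicates says that the animals were separate, and the difference between the libraries may be technical. There was 1 group, so no conditions could be compared, and each difference below is one between these 2 libraries.

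MicroRNAs are cut from hairpin precursors and pair through their seed, bases 2 to 8 from the 5′ end, with sites in mRNAs that they repress. Microglia are the resident macrophages of the brain, and white blood cells reach the tissue in its vessels, meninges and perivascular spaces. miR-142 is made in nearly all blood cell lineages and also in microglia, miR-150 is best known from mature B and T lymphocytes, and miR-223 from neutrophils, monocytes and platelets. miR-146a and miR-155 are both induced by inflammatory signals, where miR-146a restrains NF-κB signalling through Traf6 and Irak1 and miR-155 promotes responses in part through Socs1. The tissue was not sorted, so counts are sums over all cells of the cortex and the blood within it, and fewer cells of a type cannot be told apart from less RNA per cell. Whether blood was flushed from the tissue is not given in the sources used here.

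The mature sequences are shown because the seed decides which mRNAs a miRNA can pair with, and because 2 of the loci have a relative whose reads could be confused with theirs. RefSeq sequences (build GRCm38.p6) were found for 5 members, with hairpins for 4 of them at the same coordinates as in GENCODE M21. The hairpin of Mir150 was missing, so Mir150 was not compared with other hairpins. Seeds are in capitals.
mmu-miR-142a-5p: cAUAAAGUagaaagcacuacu
mmu-miR-142a-3p: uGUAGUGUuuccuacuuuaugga
mmu-miR-142b: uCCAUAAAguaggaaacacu
mmu-miR-146a-5p: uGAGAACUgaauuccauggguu
mmu-miR-146a-3p: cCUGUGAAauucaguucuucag
mmu-miR-146b-5p: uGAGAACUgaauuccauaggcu
mmu-miR-150-3p: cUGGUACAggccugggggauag
mmu-miR-155-5p: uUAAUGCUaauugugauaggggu
mmu-miR-155-3p: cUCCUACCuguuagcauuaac
mmu-miR-223-5p: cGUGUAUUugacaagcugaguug
mmu-miR-223-3p: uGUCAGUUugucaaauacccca
The 9 arms printed for the members carry 9 different seeds. Both this count and the next cover the printed arms, and miR-150-5p is not among them. Of these seeds, only that of miR-146a-5p occurs in another of the 1679 mature miRNAs of the table, in miR-146b-5p.

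The counts are per hairpin gene and do not separate its arms. The hairpins are printed with the mature arms in capitals, since a read anywhere on them enters the count.
Mir142 hairpin: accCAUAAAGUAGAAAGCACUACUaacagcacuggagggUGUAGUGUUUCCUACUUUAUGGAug
Mir142b hairpin: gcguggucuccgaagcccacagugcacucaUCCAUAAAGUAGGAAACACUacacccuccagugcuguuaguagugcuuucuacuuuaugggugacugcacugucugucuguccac
Mir146 hairpin: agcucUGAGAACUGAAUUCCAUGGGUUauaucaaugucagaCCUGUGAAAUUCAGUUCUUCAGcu
Mir155 hairpin: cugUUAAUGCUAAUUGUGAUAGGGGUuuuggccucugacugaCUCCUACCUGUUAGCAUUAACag
Mir223 hairpin: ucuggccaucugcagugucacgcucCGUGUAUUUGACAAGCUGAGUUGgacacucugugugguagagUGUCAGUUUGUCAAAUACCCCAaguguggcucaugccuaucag
The GC content was 42.2% for the Mir142 hairpin, 40.0% for Mir146, 43.1% for Mir155 and 50% for Mir223, against a median of 51.7% over 1005 mouse hairpins. Their folding energies per base, predicted with RNAfold, ran from -0.400 kcal/mol for Mir223 to -0.420 kcal/mol for Mir142, near the median of -0.406 kcal/mol. The longest stretch shared with any other hairpin was 13 bases for Mir142, 12 bases for Mir223 and 10 bases for Mir155, whereas Mir146 shared 21 bases with Mir146b.

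The genes lie on 4 chromosomes and differ in their surroundings (mm10, GENCODE M21). Mir142 (ENSMUSG00000105196.1) lies on chromosome 11 from 87756864 to 87756927 on the plus strand, in an intron of the long non-coding RNA Mir142hg, and opposite the miRNA gene Mir142b. Mir146 (ENSMUSG00000065601.1) lies on chromosome 11 from 43374397 to 43374461 on the minus strand and overlaps no other annotated gene. The nearest protein-coding gene, Pttg1, which encodes securin, is 45789 bases away. Mir150 (ENSMUSG00000065495.1) lies on chromosome 7 from 45121757 to 45121821 on the plus strand and also overlaps no other annotated gene. Mir155 (ENSMUSG00000065397.1) lies on chromosome 16 from 84714140 to 84714204 on the plus strand, inside an exon of Mir155hg, the non-coding transcript from which it is cut. Mir223 (ENSMUSG00000076066.1) lies on chromosome X from 96242817 to 96242926 on the plus strand, inside an exon of the non-coding transcript F630028O10Rik. Its nearest protein-coding gene, 4277 bases away on the other strand, is Vsig4, which encodes a complement receptor of tissue macrophages.

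Library 1 held 3827158 reads and library 2 held 4553291 reads on the sense strand of miRNA genes, out of 11372894 and 12980686 reads in all. Levels are given as counts per 1000000 of these sense-strand reads (CPM), and a gene is called detected with at least 10 reads in each library, which 406 genes had. Reads with more than 1 place in the genome, which tables of this layout assign to no gene, made up 41.7% and 41.1% of the libraries. Intervals cover counting error only and leave out the spread between samples. The reads carry no molecular identifiers, so several may stem from 1 molecule, and the intervals may be too narrow even for counting error. To describe the tissue, a list of 10 neuronal miRNA genes, chosen with earlier results of these data known, was summed. It made up 7.08% of miRNA reads in library 1 and 4.34% in library 2, although the Mir124a and Mir9 copies in it are multi-copy genes. Most of that sum came from Mir132, with 48515 CPM in library 1 and 30152 CPM in library 2. Mir132 is also known from inflammation, so the sum is not specific to neurons and is no test of the tissue.

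Mir150 and Mir146 carried nearly all reads of the 5 genes. Mir142 and Mir155 were far lower, with Mir142 16.0-fold below Mir146 in the mean, and Mir223 was lowest. Which cells these reads came from was not tested. Together the genes held 8283 reads in library 1, which is 0.216% of its sense-strand miRNA reads (exact 95% interval 0.212 to 0.221%). In library 2 they held 7973 reads or 0.175% (0.171 to 0.179%). The mean was 0.196% ± 0.0292 (SD, n = 2), and 4 of the 5 genes were detected in the sense used here.

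Mir150 had 4940 reads or 1291 CPM in library 1, and 4645 reads or 1020 CPM in library 2, a mean of 1155 ± 191 CPM (SD, n = 2). It ranked 87 of 2202 genes by mean CPM. Mir146 had 2969 reads or 776 CPM in library 1, and 2914 reads or 640 CPM in library 2, with a mean of 708 ± 96.0 CPM and rank 111. Both genes were well above the median detected gene, which stood at 95.6 CPM. Mir150 was 1.66-fold above Mir146 in library 1 and 1.59-fold in library 2, and its lower library lay above the higher library of Mir146.

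Mir142 had 173 reads or 45.2 CPM in library 1, and 198 reads or 43.5 CPM in library 2, a mean of 44.3 ± 1.21 CPM (SD, n = 2) at rank 233. Mir155 had 140 reads or 36.6 CPM in library 1, and 208 reads or 45.7 CPM in library 2, a mean of 41.1 ± 6.44 CPM at rank 239. The order of these 2 genes was not the same in both libraries, since Mir142 was 1.24-fold above Mir155 in library 1 and 0.952 times its level in library 2. Their levels overlapped over the 2 libraries, and the difference between these genes was not tested. Both stood below the liver miRNA gene Mir122, taken as a gene of a tissue that should be absent, which had 72.4 CPM in library 1 and 78.6 CPM in library 2.

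Mir223 had 61 reads or 15.9 CPM in library 1 (95% exact Poisson interval 12.2 to 20.5 CPM), and 8 reads or 1.76 CPM in library 2 (0.759 to 3.46 CPM). The mean of 8.85 CPM carried an SD of 10.03 (n = 2), larger than the mean itself. Its rank was 288 in library 1 and 450 in library 2, and it was the only 1 of the 5 genes below the detection minimum in a library. Mir223 was 2.30-fold below Mir155 in library 1 and 26.0-fold below it in library 2. The order Mir150, Mir146, Mir142, Mir155, Mir223 was the same with levels divided by hairpin length, which is 110 bases for Mir223 and 64 or 65 bases for the others.

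**Figure D1:**
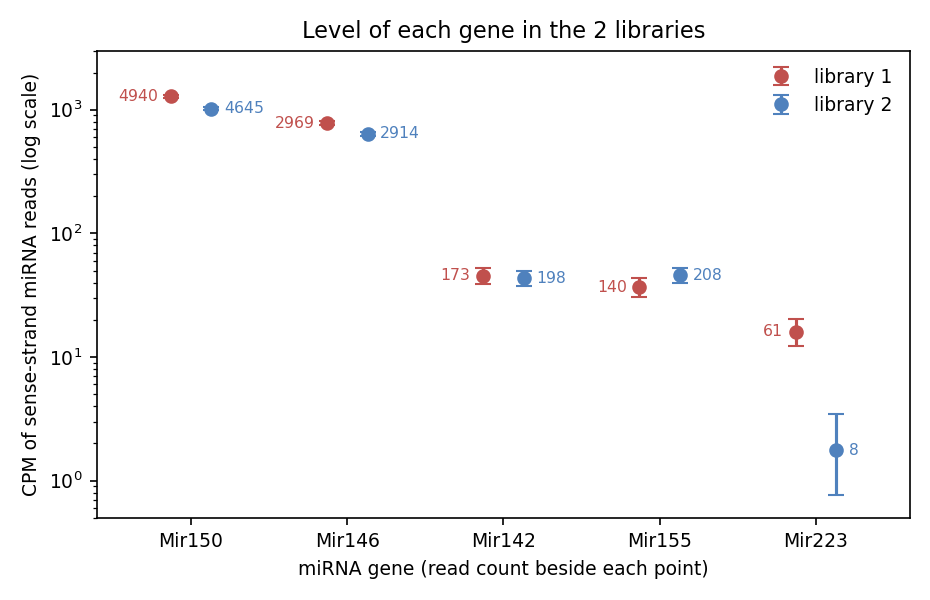
Level of the 5 genes in library 1 (left point of each pair) and library 2 (right point), in CPM of sense-strand miRNA reads on a log axis, with 95% exact Poisson intervals and the read count beside each point. Mir150 and Mir146 stand at 640 CPM or more in both libraries, Mir142 and Mir155 overlap near 40 CPM, and Mir223 stands at 15.9 CPM in library 1 and 1.76 CPM in library 2.

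The make-up of the set was similar in the libraries apart from its low members. Mir150 supplied 59.6% of the reads of the 5 genes in library 1 (58.6 to 60.7%, exact 95% interval) and 58.3% in library 2 (57.2 to 59.3%). Mir146 supplied 35.8% in library 1 (34.8 to 36.9%) and 36.5% in library 2 (35.5 to 37.6%). For both genes the intervals of the libraries overlapped, and together they made up 95.5% in library 1 and 94.8% in library 2. Mir142 supplied 2.09% in library 1 and 2.48% in library 2, again with overlapping intervals. Mir155 supplied 1.69% (1.42 to 1.99%) in library 1 and 2.61% (2.27 to 2.98%) in library 2, and Mir223 0.736% (0.564 to 0.945%) in library 1 and 0.1003% (0.0433 to 0.198%) in library 2. The intervals of these 2 genes did not overlap. Set against Mir142, the most general leukocyte gene of the set, Mir150 was 28.6-fold higher in library 1 and 23.5-fold higher in library 2.

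The count of Mir142 depends on reading the strands apart. Mir142b is annotated on the minus strand across the whole Mir142 hairpin, and its mature miRNA, miR-142b, is the reverse complement of 20 of the 23 bases of miR-142a-3p (chromosome 11, 87756906 to 87756925). All reads at the locus lay on the strand of Mir142, with 173 in library 1 and 198 in library 2, while Mir142b had 0 reads on its own strand. A count of 0 allows up to 0.784 CPM in library 1 and 0.659 CPM in library 2 (3 reads). In the column that ignores strand a read that lies on both genes is ambiguous, and Mir142 was at 0 in both libraries. The other 4 genes had no overlapping miRNA gene and kept their counts in that column, with 3 antisense reads added for Mir150 in library 2.

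**Figure D2:**
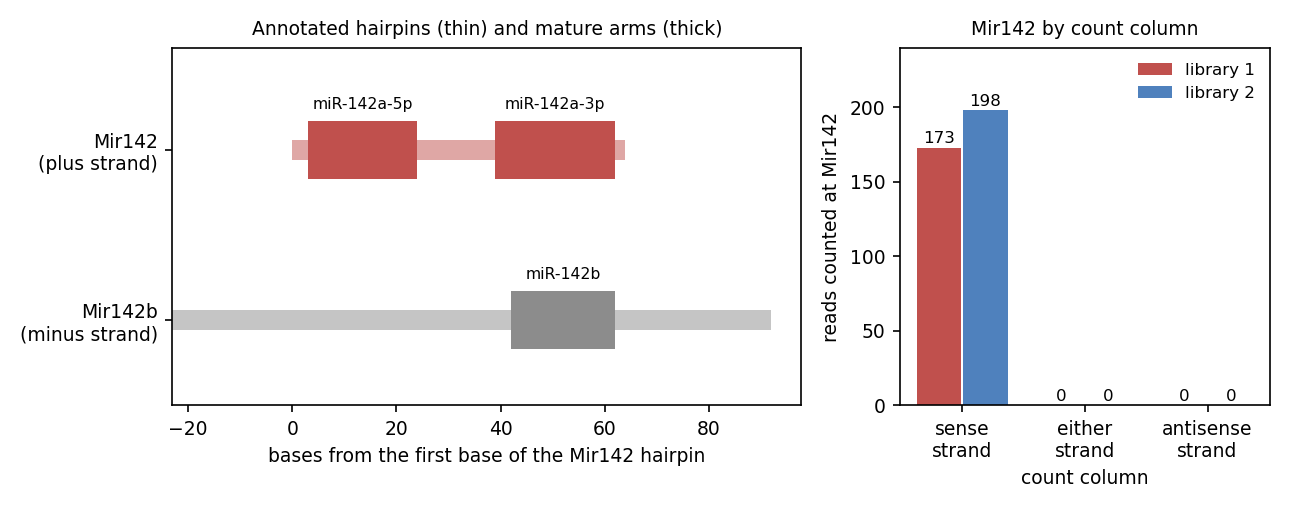
Left, the Mir142 and Mir142b hairpins (thin bars) and their mature arms (thick bars), by distance in bases from the first base of the Mir142 hairpin. Right, reads counted at Mir142 in library 1 (left bar of each pair) and library 2 (right bar) in the sense, strand-ignoring and antisense columns: 173 and 198 reads on the sense strand and 0 in the other columns.

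Mir146 was by far the larger source of its seed. Its relative Mir146b encodes miR-146b-5p, which has the same seed as miR-146a-5p and differs from it by G18A and U21C, counted from the 5′ end with the base of miR-146a-5p first. Mir146b had 9 reads in library 1 and 7 reads in library 2, against 2969 and 2914 reads of Mir146. Mir146 was thus 330-fold above Mir146b in library 1 (95% exact interval 174 to 722) and 416-fold in library 2 (202 to 1036). A read that ends before base 18 of these arms matches both loci, and in the layout of these tables it would be counted at neither.

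Between the libraries, Mir150, Mir146 and Mir223 were higher in library 1 when each of 508 genes was tested with a two-sided exact binomial test, adjusted after Benjamini-Hochberg, while Mir142 and Mir155 did not pass it. That is 3 of 5 genes, against 48.4% of all genes tested, so the share called in either direction is near the background. All 3 were higher in library 1, against 25.2% of all genes tested (23.2% were higher in library 2). Whether so few genes lean to library 1 beyond the background was not tested. The binomial test allows for counting error only and calls more genes at higher depth: 12.7% of 197 genes with 10 to under 100 reads in total, 47.1% of 119 genes with 100 to under 1000 reads and 79.6% of 108 genes with 1000 to under 10000 reads. The median log2 ratio of library 1 over library 2 was 0.28 over the 5 genes and -0.01 over all genes tested.

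Mir150 was 1.27-fold higher in library 1 (exact 95% interval 1.22 to 1.32, adjusted p = 7.22e-30 by the exact binomial test), and Mir146 was 1.21-fold higher (1.15 to 1.28, adjusted p = 7.11e-13). These are ordinary differences for these libraries, since genes with 1000 to under 10000 reads differed by a median of 1.23-fold and the fold of Mir150 ranked 51 and that of Mir146 58 of 108 such genes. Neither passed the exact test of edgeR, in which the samples may also vary beyond counting error (both with adjusted p = 1). That test takes its spread from the same 2 libraries and could hardly pass folds this small at any depth. Mir21a, 4.43-fold higher in library 1, did not pass it either (adjusted p = 0.211 by edgeR's exact test). Mir142 differed by 1.04-fold (ratio 0.843 to 1.28, adjusted p = 0.801 by the exact binomial test), with a fold that ranked 472 of 508. Mir155 went the other way, with a ratio of 0.801 (0.642 to 0.997), and did not pass after adjustment (adjusted p = 0.0895, unadjusted p = 0.0463, exact binomial test). Its call changed with the scaling of the libraries: it was higher in library 2 with DESeq2's size factors (adjusted p = 0.0492) and with totals of all reads (adjusted p = 0.0325, exact binomial tests).

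Mir223 differed most, at 9.07-fold higher in library 1 (exact 95% interval 4.33 to 22.0, adjusted p = 6.01e-13 by the exact binomial test). With 69 reads in total it was 1 of the 25 genes called among the 197 of that depth. Its fold ranked 6 of all 508 genes and 4 of those 197. By edgeR's exact test with 1 dispersion for all genes it was among 4 of 508 genes that differed (0.787%, adjusted p = 0.0484), and 25 genes (4.92%) had an unadjusted p under 0.05. That dispersion, a coefficient of variation of 33.2% between samples, was estimated from the same 2 libraries, so the p-value places the gene among the others and is no replicated test. The difference rests on 8 reads in library 2.

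**Figure D3:**
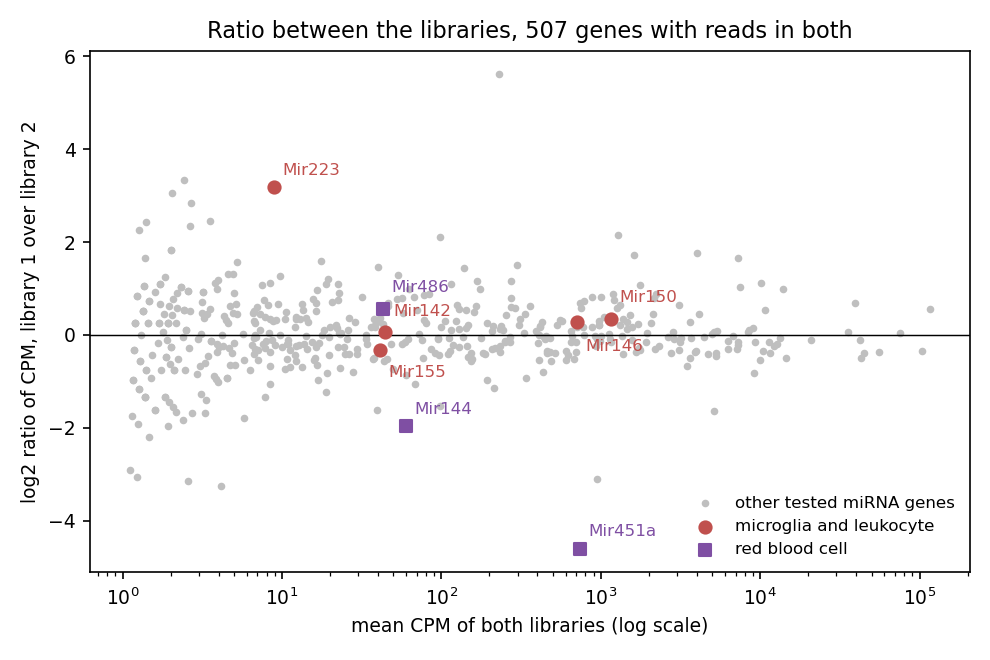
Log2 ratio of CPM of library 1 over library 2 against mean CPM (log axis) for 507 tested miRNA genes with reads in both libraries. The 5 microglia and leukocyte genes are circles and the 3 red blood cell genes squares. Mir142, Mir146, Mir150 and Mir155 lie within the band of the other genes near 0, and Mir223 at 3.18. Mir451a lies at -4.61, Mir144 at -1.97 and Mir486 at 0.55.

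Markers of other cells in blood, vessel, glia and neurons differed between the libraries in both directions. The erythroid Mir451a had 223 reads in library 1 and 6459 reads in library 2, and Mir144, which lies beside it, had 94 and 437 reads, so both were lower in library 1 (log2 ratios -4.61 and -1.97). The third gene of the red blood cell list, Mir486, was 1.47-fold higher in library 1, with 195 and 158 reads. The list summed to 134 CPM in library 1 and 1549 CPM in library 2, with no gene at 0. Mir451a alone gave 58.3 CPM of this sum in library 1 and 1419 CPM in library 2. The vessel list (Mir126a, Mir143 and Mir145a) summed to 14355 CPM in library 1 and 18575 CPM in library 2, with Mir126a and Mir143 higher in library 2 and Mir145a higher in library 1. The oligodendrocyte list summed to 4981 CPM in library 1 and 3468 CPM in library 2, with 2 of its 3 genes higher in library 1. The neuronal list summed to 70844 CPM in library 1 and 43358 CPM in library 2, mostly from Mir132 (48515 and 30152 CPM). Mir124a-1 and Mir9-3 had log2 ratios below 0 (-0.60 and -0.20) and did not pass the binomial test. Of its 8 tested genes, 4 were higher in library 1 and 0 in library 2. These counts stand against 25.2% of all genes called higher in library 1 and 94.0% called in either direction among the 84 genes with 10000 reads or more. No vessel, oligodendrocyte or neuronal gene passed edgeR's exact test (0 at an unadjusted p under 0.05). With a dispersion from the same 2 libraries, that test could pass only large folds, so it says little about these genes. The part of blood, vessel, glial or neuronal content in the ratios of the 5 genes was not tested.

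**Figure D4:**
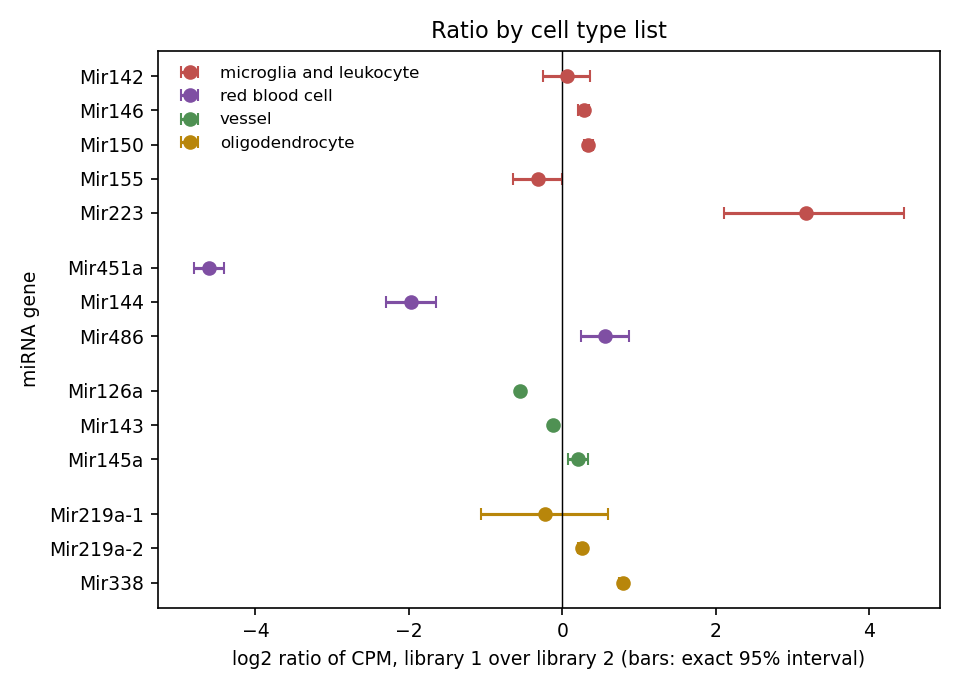
Log2 ratio of CPM of library 1 over library 2 with exact 95% intervals for the microglia and leukocyte genes and the fixed red blood cell, vessel and oligodendrocyte lists. The interval of Mir142 covers 0 and Mir223 stands at 3.18. Of the red blood cell genes, Mir451a and Mir144 stand at -4.61 and -1.97, while Mir486 stands at 0.55, on the same side as Mir223.

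Other miRNA genes that are known from leukocytes or inflammation were taken as a list of 33 genes, of which 27 were detected and 31 tested. By the exact binomial test 12 were higher in library 1, 7 were higher in library 2 and 12 did not pass, against 48.4% of all genes called. None passed edgeR's exact test (1 gene, Mir21a, had an unadjusted p under 0.05, with adjusted p = 0.211). Since Mir21a did not pass at 4.43-fold, that test says little about the smaller differences in the list. The list is not specific to leukocytes, since its highest gene, Mir132 (mean 39333 CPM), is also on the neuronal list. Mir29a came next (10625 CPM). It summed to 7.63% ± 1.42 of the sense-strand reads (SD, n = 2). Its genes spanned a wide range of levels. Mir511, which lies in the macrophage mannose receptor gene, had 8 reads in library 1 and 7 reads in library 2, and Mir147, which Toll-like receptors induce in macrophages, had 11 and 7 reads. Mir342, known from lymphoid and myeloid cells, had 3952 CPM in library 1 and 3277 CPM in library 2. This 1.21-fold difference is ordinary, since genes with 10000 reads or more differed by a median of 1.24-fold. Mir21a, which inflammation and injury induce, had 2095 CPM in library 1 and 473 CPM in library 2, and was 4.43-fold higher in library 1. The list holds the lymphocyte-expanding miR-17 to miR-92 cluster. Mir17 (402 CPM in library 1 and 515 CPM in library 2) and Mir20a (132 and 155 CPM) were higher in library 2. Mir18 and Mir92-1 did not pass the test, and Mir19a and Mir19b-1 had 0 reads. Reads with more than 1 place are assigned to no gene, so counts of numbered copies such as Mir92-1 and Mir19b-1 may be too low.

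For each detected member, the 2 genes nearest in mean log2 CPM and log2 ratio were found over the 2 libraries, which places genes of like level and like ratio and says nothing of shared function. They were Mir346 and Mir212 for Mir146 (distances 0.04 and 0.11 on the log2 scale), Mir1249 and Mir409 for Mir150 (0.15 and 0.24), Mir1188 and Mir6944 for Mir142 (0.19 and 0.24), and Mir679 and Mir3093 for Mir155 (0.21 and 0.24). Mir223 was below the detection minimum in library 2 and was left out of this search.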

How the data were processed

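For each library the authors deposited a table of raw counts, in whole reads per miRNA gene and without normalization. Per the deposited descriptions the genome build is mm10 and the annotation GENCODE M21. The layout is that of STAR's gene counts, but the sources used here do not name the aligner, its version or the trimming of adapters. The mice are hybrids and mm10 is the sequence of C57BL/6J, so reads that differ from it may have been lost. How well each small RNA was ligated also bears on levels compared between genes and was not tested.

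The column for the sense strand was used, and totals and tests left out the 4 tally rows. All 2202 identifiers matched GENCODE M21. CPM scale each count to 1000000 reads on the sense strand of miRNA genes, and ratios used no pseudocount. The libraries were compared gene by gene, from 10 reads in both together, with a two-sided exact binomial test. Its p-values were adjusted after Benjamini-Hochberg over all such genes, with a threshold of 0.05. The alternatives were edgeR's exact test with a common dispersion, other scalings (edgeR's TMM factors, DESeq2's size factors, other totals), other count minimums, the column that ignores strand, 1 CPM added and leaving out each library. Every test was tried on simulated counts. Versions were Python 3.11.15, scipy 1.17.1, R 4.3.3, edgeR 4.0.16, DESeq2 1.42.0 and RNAfold 2.7.2. Named genes are the 5 members with overlapping and host genes, Mir146b, the 2 nearest genes of each detected member, and detected genes of 6 fixed lists. Low genes of those lists (Mir511, Mir147, Mir19a and Mir19b-1) and the nearest protein-coding genes were named after their values were seen. The members and lists were chosen with earlier results of these data known.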

Additional observations from a re-analysis of the deposited data

Results flagged for a closer look

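Entries in the antisense column were above the 3 reads that a count of 0 allows at 1 locus of the set. Mir142b, annotated opposite Mir142, had 173 antisense entries in library 1 and 198 in library 2. These equal the sense-strand counts of Mir142, so they are the same reads seen from the other gene and not an additional signal. Mir150 had 3 antisense reads in library 2, which is at that limit and not above it, and the other members had none. No group had the 4 samples that a check for outlying samples needs.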

How the results depend on the processing

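The direction and call of Mir223, Mir146 and Mir150, and the number of genes called by the binomial test (222 to 252, against 246), held under the 5 other scalings, both other count minimums and the column that ignores strand. With edgeR's exact test the number fell to 4, and Mir146 (log2 ratio 0.26, adjusted p = 1) and Mir150 (0.32, adjusted p = 1) no longer passed, while Mir223 kept its call (log2 ratio 3.14, adjusted p = 0.0484). That test takes its dispersion from the same libraries, so folds as small as those of Mir146 and Mir150 could hardly pass it. Mir155 passed with DESeq2's size factors (log2 ratio -0.36) and with totals of all reads (-0.38). Its adjusted p ran from 0.0325 to 1 over all alternatives. Mir142, which was never called, changed sign with totals of all reads (log2 ratio -0.00396). The scalings moved every log2 ratio by -0.01 to -0.06. In the column that ignores strand Mir142 gave no ratio, and its mean CPM and its share of the members' reads were 0, which moved the shares of Mir146 to 37.0% and of Mir150 to 60.3%. Of all reads of a library the 5 genes held 0.0671%, a lower value by construction of the denominator. With 1 CPM added the log2 ratio of Mir223 was 2.62. Leaving out each library gave 0.175% and 0.216% for the share of the 5 genes and 1.76 and 15.9 CPM for Mir223. Depth limits Mir223 most, with 8 reads in library 2. No paired analysis was possible because there is 1 group.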

Other observations

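Of all 508 genes tested, 5 differed between the libraries by a larger fold than Mir223, and they were named after their values were seen. Mir26a-2 had 1722 reads in library 1 and 42 in library 2, and Mir8109 had 17 and 2 reads. Mir451a had 223 and 6459 reads, Mir3074-1 had 3 and 34 reads, and Mir7039 had 0 and 16 reads. Of these, Mir26a-2 and Mir451a passed edgeR's exact test (adjusted p = 2.94e-08 and 1.93e-06). Mir26a-2 is a numbered copy, as is Mir26a-1. Reads that match both copies are assigned to no gene, so its counts may cover only part of its reads.

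Mir142 was not alone in losing its reads when strand was ignored. Of the 406 detected genes, 23 were at 0 in both libraries in that column.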
